A study of Mus musculus with 12 samples.

Results

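The genes described here carry the names of the protein components of the cytosolic ribosome. They were chosen by gene symbol: Rpl or Rps followed by a number and at most 1 of the letters a, x or l, together with Rplp0, Rplp1, Rplp2 and Rpsa. The rule found 82 members among the 24532 genes of the deposited table. It used no measured value. By their names, 43 belong to the large subunit, 30 to the small subunit and 3 to the acidic stalk, and 6 are paralogs or copies (Rpl3l, Rpl10l, Rpl32l, Rpl39l, Rps4l and Rps27l). Of these 6, Rps4l is annotated as a transcribed pseudogene in RefSeq. Rpl32l is annotated as protein coding in RefSeq and as a processed pseudogene in GENCODE. RNA sequencing was done on bulk mouse ear skin from 4 groups of 3 libraries each. The mice were kept specific-pathogen-free (SPF) or were germ-free (GF), and their ear skin had been treated with the solvent ethanol or with MC903; the labels give the number of treatments as 5, with wording that leaves their frequency unclear. MC903 is calcipotriol, a vitamin D analog whose topical use is a common mouse model of atopic dermatitis-like inflammation. SPF mice carry a microbiota without listed pathogens, and GF mice carry none. The strain label is C57BL/6 for 9 libraries, and it reads C57BL/7 for GF MC903 replicate 4, C57BL/8 for GF ethanol replicate 5 and C57BL/9 for GF MC903 replicate 5. Replicates are numbered 1, 2 and 3 in SPF and 1, 4 and 5 in GF skin. The labels do not say that the libraries of a group came from separate mice, nor that an equal number marks the same mouse, so p-values here speak only of spread among the libraries, which may be technical.

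A ribosome translates messenger RNA with a small subunit, which reads the codons, and a large subunit, which joins the amino acids. Each subunit is built in the nucleolus from ribosomal RNA and single copies of most of its proteins, so cells make these proteins in matched amounts. Their messenger RNAs are among the most abundant in a cell. They carry a terminal oligopyrimidine (TOP) tract, a C followed by a run of C and T (U in the RNA) at the very start, through which the TOR kinase pathway and LARP1 control their translation. Growing and dividing tissue, such as thickening epidermis, is known for a high demand for ribosomes.

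The libraries held 36358294 to 48225425 deposited counts, and members took 2369505 to 4349862 of them. Of the 82 members, 80 had enough counts to be tested among 16466 genes. Rpl10l was at 0 counts in every library, and Rpl32l had 3 to 12 counts per library. All 10 keratinocyte markers of the marker list were detected in every group. Their summed level was 26609 to 33559 CPM (counts scaled to the library's size) in the ethanol libraries and 49413 to 61609 in the MC903 libraries. The sum is weighted to the most abundant markers. With MC903, 5 of the 10 rose and 4 fell in SPF skin, and 5 rose and 2 fell in GF skin. One library stood apart: in GF MC903 replicate 4, short members were higher than in its 2 group mates, and most counts of an identical gene pair stood under the other gene of the pair. Counts of members and several results that rest on it are given with and without it, but not every value of GF MC903 skin is. In these bulk samples, fewer cells of a type and less RNA per cell cannot be told apart.

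The start of the transcript was read for a TOP tract in RefSeq promoter sequences of build GRCm38.p6, in which 61 of the 82 members were matched. A C within 5 bases of the annotated start, followed by pyrimidines to a run of at least 5 bases, was present in 29 of the 61 members, or 47.5%. The share was 21.2% over the 27025 genes of the promoter table. The letters CCGGAAG, on either strand of the 250 bases before and 50 after the start, were found in 25 of the 61 members (41.0%) and in 9.93% of all genes. The letters TATAAA, read the same way, were found in 7 members (11.5%) and in 15.7% of all genes. These are matches of letters at annotated starts, which can lie several bases from the start that a cell uses.

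The windows below show 15 bases before and 15 bases from the annotated start on, 5′ to 3′, for the members on which the later results turn. Capitals mark the pyrimidine run where one was found. Rpl38 and Rpl41 had high increases with MC903, Rplp0 and Rpl5 had low ones, Rpl12, Rpl15 and Rpl10 responded less in GF skin, and Rpl3l fell.
Rpl38, chr11:114668565-114668594, plus strand: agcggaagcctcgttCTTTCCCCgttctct
Rpl41, chr10:128549154-128549183, minus strand: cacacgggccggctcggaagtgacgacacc
Rplp0, chr5:115559452-115559481, plus strand: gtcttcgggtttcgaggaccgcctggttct
Rpl5, chr5:107900513-107900542, plus strand: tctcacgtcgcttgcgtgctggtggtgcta
Rpl12, chr2:32961697-32961726, plus strand: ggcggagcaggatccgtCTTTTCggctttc
Rpl15, chr14:18270972-18271001, minus strand: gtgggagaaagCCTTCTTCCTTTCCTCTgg
Rpl10, chrX:74270801-74270830, plus strand: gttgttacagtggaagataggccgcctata
Rpl3l, chr17:24727811-24727840, plus strand: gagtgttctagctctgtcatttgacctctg
The run was 17 bases long in Rpl15 and 8 in Rpl38, and none was found in the windows of Rpl41, Rplp0, Rpl5, Rpl10 and Rpl3l. The 28 tested members with a run had a median response to MC903 of 1.25 (log2) in SPF skin, and the 31 tested members without one had a median of 1.16. In GF skin these medians were 1.22 and 1.09. In SPF skin the members with the highest and the lowest response, Rpl26 and Rpl3l, were both found without a run. The value of Rpl26 is uncertain, since most counts stood under a near-identical copy. With that copy added its response was 1.09 (below). The next highest member was Rpl41, also without a run.

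The first comparison asked how much of the skin's messenger RNA came from ribosomal protein genes in each group. With ethanol, members took 5.63%, 6.01% and 5.48% of the counts in the 3 SPF libraries. With MC903 they took 7.86%, 8.86% and 7.81%. In GF skin the shares were 6.17%, 6.83% and 6.47% with ethanol and 9.32%, 10.02% and 9.33% with MC903. The MC903 libraries lay above the ethanol libraries in both housings, with no overlap, and each GF group lay above the SPF group of the same treatment. The means were 5.71% ± 0.27 (SD, n = 3) for SPF ethanol, 8.18% ± 0.59 for SPF MC903, 6.49% ± 0.33 for GF ethanol and 9.56% ± 0.40 for GF MC903. The share was thus 1.43 times as high with MC903 in SPF skin and 1.47 times as high in GF skin. Of the summed FPKM, which counts each transcript per length, members held 15.4% ± 0.58, 18.2% ± 0.999, 16.6% ± 0.56 and 20.8% ± 1.13 in the same order of groups. On this scale the ratio between treatments was smaller.

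**Figure D1:**
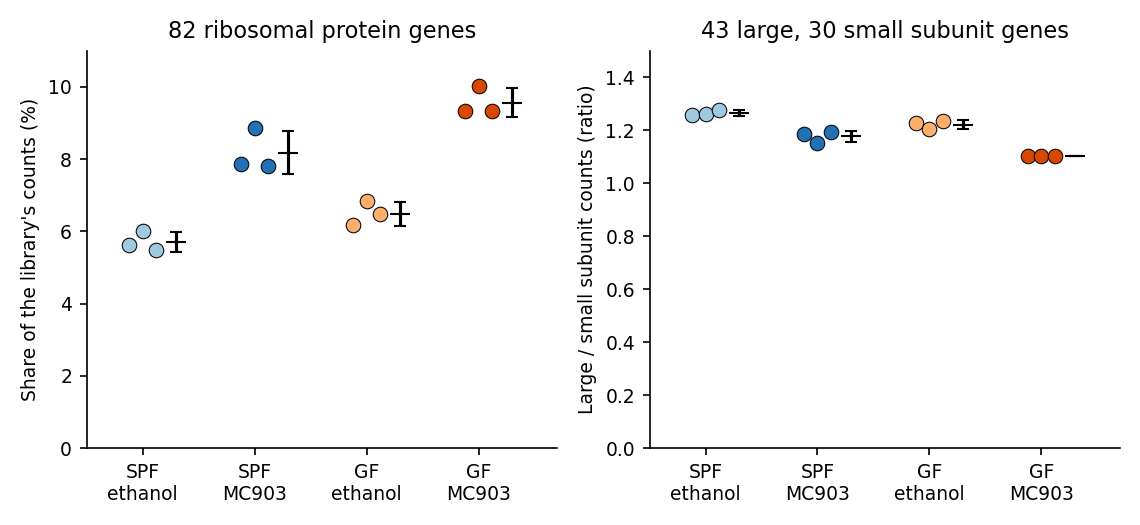
Share of each library's deposited counts held by the 82 members (left, percent) and counts of large subunit members divided by counts of small subunit members (right, ratio). Circles are libraries, and bars are the group mean with its SD (n = 3); the share was 5.48% to 6.83% in the 6 ethanol libraries and 7.81% to 10.02% in the 6 MC903 libraries.

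Both subunits took a larger share of the raw counts with MC903, and the small subunit gained more relative to its share with ethanol. These counts are not corrected for transcript length. On a scale that was, the medians over the genes of each subunit had the other order (below). No share by subunit was computed on that scale. Large subunit members went from 2.77% ± 0.12 to 3.95% ± 0.26 of the counts in SPF skin and from 3.14% ± 0.15 to 4.47% ± 0.20 in GF skin. Small subunit members went from 2.19% ± 0.11 to 3.36% ± 0.28 and from 2.57% ± 0.15 to 4.05% ± 0.18. The ratio of large to small subunit counts was therefore lower with MC903: 1.26 ± 0.0099 against 1.18 ± 0.021 in SPF skin and 1.22 ± 0.016 against 1.10 ± 0.0010 in GF skin. The ranges of this ratio did not overlap between treatments, being 1.26 to 1.28 and 1.15 to 1.19 in SPF skin, and 1.20 to 1.23 and 1.10 to 1.10 in GF skin. The 3 stalk genes went from 0.736% ± 0.046 to 0.861% ± 0.056 in SPF skin and from 0.769% ± 0.035 to 1.02% ± 0.03 in GF skin.

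The next comparison asked which members changed with MC903 in SPF skin. Nearly all of them rose: of the 80 tested, 78 rose, 1 fell (Rpl3l) and 1 did not pass the test (Rps27), by edgeR's quasi-likelihood test with Benjamini-Hochberg adjustment over all genes at 0.05. Over all genes tested, 35% rose and 38.8% fell. The median log2 fold change of the members was 1.14, with the interquartile range from 0.92 to 1.31, and the median of all genes was -0.10. In GF skin 77 members rose, 1 fell (Rpl3l) and 2 did not pass (Rpl5 and Rpl39l), where 33.4% of all genes rose and 35.1% fell. The median of the members was again 1.14, and that of all genes was -0.07. At least a doubling was fitted for 55 members in SPF and 50 in GF skin. By class, 43 of 43 large subunit, 29 of 30 small subunit and 3 of 3 stalk members rose in SPF skin, with medians of 1.14, 1.19 and 1.22. In GF skin 42, 30 and 3 rose, with medians of 1.11, 1.19 and 1.32.

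These log2 values depend on the scale. With library totals in place of TMM scaling, the median of all genes moved from -0.10 to -0.68 in SPF and from -0.07 to -0.58 in GF skin. The members' median moved with it, to 0.56 and 0.63, and 69 and 72 members rose, where 19.0% and 17.0% of all genes rose and 61.4% and 58.9% fell. Its distance from the median of all genes was 1.24 in SPF and 1.21 in GF skin under TMM scaling.

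The stalk proteins, which recruit the translational GTPases to the ribosome, responded unequally. Rplp1 was the member with the highest mean FPKM. Its level was 1512, 1611 and 1377 CPM in the SPF ethanol libraries and 3385, 3906 and 3211 with MC903, and in GF skin it was 1724, 1942 and 1779 against 4418, 4811 and 4407. Every MC903 library lay above every ethanol library of Rplp1, and the log2 fold change was 1.22 ± 0.10 (SE, n = 3 per group, adjusted p = 1.72e-07 by edgeR) in SPF and 1.32 ± 0.10 in GF skin. Rplp2 rose by 1.4997 ± 0.14 and 1.62 ± 0.14. Rplp0, the protein that anchors the stalk and has the next mean FPKM after Rplp1 and Rps12, rose least of the 3. Its values were 3899, 4269 and 3717 CPM with ethanol and 5230, 5830 and 5343 with MC903 in SPF skin, and 3709, 4177 and 4074 against 5797, 5422 and 5737 in GF skin. The groups did not overlap on this scale, and the log2 fold change of Rplp0 was 0.46 ± 0.09 (adjusted p = 0.000419, edgeR) in SPF and 0.50 ± 0.09 in GF skin. With library totals its direction turned, to -0.11 and -0.01, and its FPKM was 3501 ± 203 (SD) with ethanol and 3247 ± 128 with MC903 in SPF skin.

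Among large subunit members, Rpl41, the smallest ribosomal protein, had one of the highest increases. It measured 403, 424 and 383 CPM with ethanol and 1699, 2027 and 1539 with MC903 in SPF skin. In GF skin it measured 459, 556 and 505 against 2055, 2518 and 1998. The MC903 and ethanol values did not overlap in either housing, and the fold change was 4.35 in SPF (log2 2.12 ± 0.12, adjusted p = 1.04e-08, edgeR) and 4.32 in GF skin (log2 2.11 ± 0.12). Rpl38, a small surface protein known for tissue-specific control of translation in the embryo, rose by 1.78 ± 0.20 and 1.93 ± 0.20 (1.64 in GF skin without GF MC903 replicate 4). At the other end stood Rpl5, which with Rpl11 and 5S ribosomal RNA forms the particle that can bind MDM2. Rpl5 measured 889, 991 and 948 CPM with ethanol and 1290, 1288 and 1374 with MC903 in SPF skin, and 978, 1014 and 1014 against 1114, 1116 and 1075 in GF skin. The GF difference was 0.14 ± 0.06 and did not pass the test (adjusted p = 0.0636, edgeR), while Rpl5 rose by 0.48 ± 0.06 in SPF skin. With library totals both values of Rpl5 were below 0, at -0.09 and -0.37. Rpl3, which lies near the peptidyl transferase centre, rose by 0.79 ± 0.07 and 0.54 ± 0.07.

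Among small subunit members, Rps12 had the highest level per length after Rplp1 in the family, with 2521 ± 147 FPKM in SPF ethanol and 4594 ± 536 in SPF MC903 skin. It rose by 1.44 ± 0.10 in SPF and 1.41 ± 0.10 in GF skin. Rpsa, the laminin receptor homolog needed for small subunit maturation, rose by 1.14 ± 0.10 and 1.09 ± 0.10. The SPF value is at the median of the family.

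**Figure D2:**
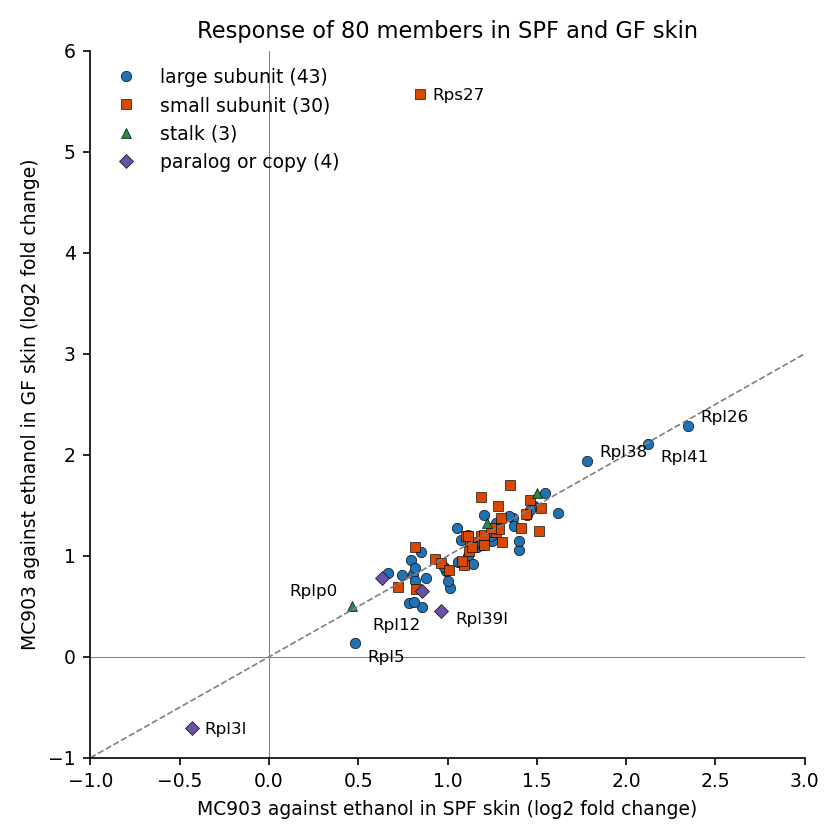
Log2 fold change with MC903 against ethanol in SPF skin (horizontal) and in GF skin (vertical) for the 80 tested members, by class; the dashed line marks equal values. Most members lie near the line between 0.5 and 2, Rpl3l lies below 0 on both axes, and Rps27 at 5.57 in GF skin rests on GF MC903 replicate 4.

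Members rose unequally. A second edgeR fit took the summed counts of the members as the size of each library, so that its log2 values are relative to the family. In SPF skin 28 members rose and 19 fell relative to the family, and in GF skin 30 rose and 23 fell. Over all genes 8.51% rose and 76.5% fell on this scale in SPF skin, and 6.24% and 78.3% in GF skin. Rpl41 stood 1.02 ± 0.07 above the family's response in SPF (adjusted p = 2.62e-08, edgeR) and 1.04 ± 0.07 in GF skin, and Rpl38 stood 0.68 ± 0.15 and 0.86 ± 0.15 above it. Rplp0 stood below it, at -0.63 ± 0.07 and -0.56 ± 0.07, and so did Rpl5, at -0.61 ± 0.08 and -0.93 ± 0.08. Rpl12, which binds at the base of the stalk, stood at -0.24 ± 0.07 in SPF and -0.58 ± 0.07 in GF skin. The order of the members was much alike in both housings: Spearman's rho between the SPF and GF responses was 0.84 over the 80 members, described here without a test since genes are not replicates.

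The response of a member went with the length of its transcript. Length was taken from the ratio of deposited counts to FPKM. Members were short, with a median of 746 bases against 2788 over all genes, and 62 of the 80 were in the shortest decile of genes (up to 1069 bases). In that decile, 56.2% of 1647 genes rose and 13.5% fell in SPF skin, and 60.6% rose and 8.38% fell in GF skin. Among members, the 20 shortest (up to 548 bases) had a median of 1.29 in SPF and 1.41 in GF skin, and the 20 longest (from 1001 bases) had 1.04 and 0.90. Without GF MC903 replicate 4 the GF medians were 1.27 for the shortest and 0.88 for the longest. When the trend with length over all genes was removed, the members' median was 0.51 in SPF and 0.39 in GF skin, with 68 and 56 members rising and 2 and 5 falling. Over all genes on this scale, 37.2% rose and 34.7% fell in SPF skin, and 33.7% and 31.2% in GF skin. By class, the medians were then 0.59 for large and 0.47 for small subunit members in SPF skin, and 0.43 and 0.40 in GF skin. The higher gain of the small subunit in raw counts was thus not seen in these medians. They weigh each gene alike, which the summed counts do not, and the 2 GF medians lay close together. The order by length then turned among members: the 20 shortest had a median of 0.39 and the 20 longest 0.79 in SPF skin, and 0.32 and 0.62 in GF skin. On this scale Rpl41 still rose, by 1.22 in SPF and 0.99 in GF skin. The members with the highest values in SPF skin were then Rps15a at 1.59, Rpl26 at 1.56 and Rps20 at 1.40, named after their values were seen. The implied lengths of Rps15a and Rps20 were 5251 and 3525 bases, far above the members' median. The part of length in the response was not tested.

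**Figure D3:**
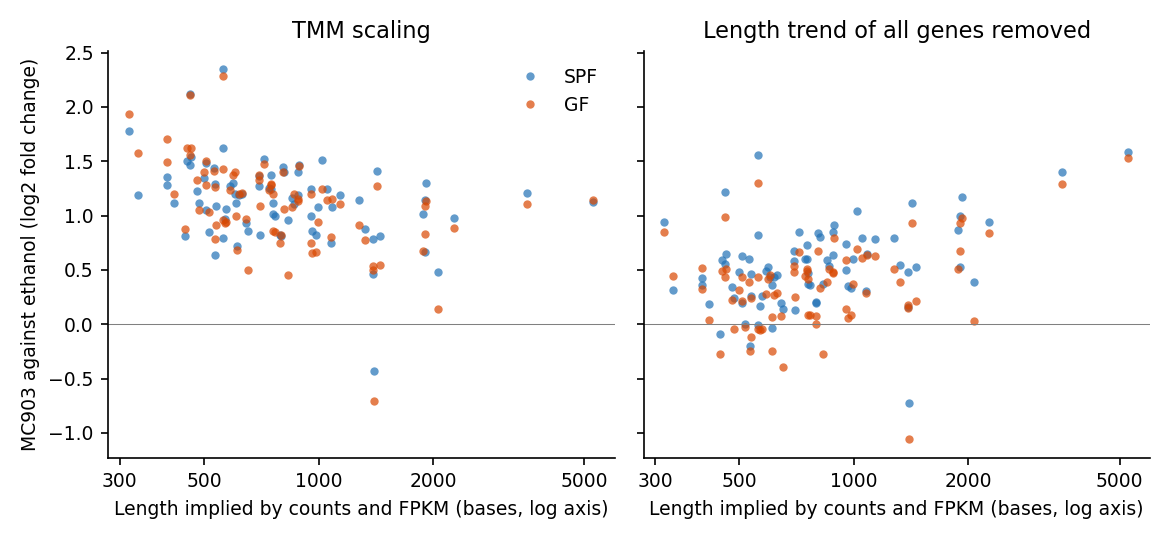
Log2 fold change with MC903 against ethanol for 79 members (Rps27 left out) against transcript length in bases (log axis), in SPF and GF skin, under TMM scaling (left) and with the length trend of all genes removed (right). The shortest 20 members have medians of 1.29 and 1.41 on the left and 0.39 and 0.32 on the right. Without GF MC903 replicate 4 the GF median on the left would be 1.27.

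Some members share their sequence with other genes in the table, which bears on 3 of them. Of 80 members with a coding sequence in GENCODE M21, 74 had a copy elsewhere in that annotation that matched at least 95% of the bases over at least 90% of the length, with a median of 5 copies and a maximum of 56 for Rpl21. Only 16 members had such a copy in the deposited table. The coding sequence of Rps27, a zinc finger protein of the small subunit, and that of its retrogene Rps27rt are 252 bases long with 0 differences. Rpl26 differs from the pseudogene Gm15772 by 2 bases of 435, and Rpl34 from Rpl34-ps1 by 2 of 351. The first 30 coding bases of Rps27 and Rps27rt, and the 30 bases around the first difference of the other pairs, show how little tells them apart; capitals mark the base that differs.
Rps27: atgcctctcgcaaaggatctccttcatccc
Rps27rt: atgcctctcgcaaaggatctccttcatccc
Rpl26: agttcaggttgttcgCggacactacaaagg
Gm15772: agttcaggttgttcgTggacactacaaagg
Rpl34: gaaagcacctaaatcTgcatgtggcgtgtg
Rpl34-ps1: gaaagcacctaaatcCgcatgtggcgtgtg
Counted from the first base of the start codon, with the member's base first, the differences are C177T and T288C for Rpl26 and T132C and C318G for Rpl34. Most counts of these pairs stood under the copy: Rpl26 had a mean of 60.6 counts per library and Gm15772 had 34021, and Rpl34 had 1218 against 19179. Reads of such pairs could be split between them in the authors' counting, so the values of these 3 members are uncertain.

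Rps27 shows the split most plainly. It had 403 and 414 counts in GF MC903 replicates 1 and 5 and 29091 in replicate 4, while Rps27rt had 21825, 21282 and 3065 in the same order. Their sum was 22228, 21696 and 32156. The member's own log2 fold change of 5.57 ± 1.35 in GF skin (adjusted p = 0.00272, edgeR) rests on that library. With the counts of Rps27 and Rps27rt added together, the pair rose by 0.85 ± 0.15 in SPF and 1.34 ± 0.15 in GF skin, and by 1.15 ± 0.12 in GF skin without GF MC903 replicate 4. Added in the same way, Rpl26 with Gm15772 rose by 1.09 ± 0.07 in SPF and 0.90 ± 0.07 in GF skin, in place of 2.35 ± 0.49 and 2.29 ± 0.51 for Rpl26 alone. Rpl34 with Rpl34-ps1 rose by 1.13 ± 0.08 and 1.07 ± 0.08, in place of 1.62 ± 0.10 and 1.43 ± 0.10.

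GF MC903 replicate 4 differed from its 2 group mates in other members too, and most in short ones. Against the mean of its mates, Rps28 was 1.04 higher on the log2 scale, Rps29 0.92, Rpl38 0.76, Rpl39l 0.74 and Rpl39 0.66. Spearman's rho between this ratio and length was -0.57 over the 80 members. With Rps27, 6 members lay more than 0.5 above the mates in this library and 0 lay as far below. Without it, 77 of 81 members rose and 1 fell in GF skin, with a median of 1.08.

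**Figure D4:**
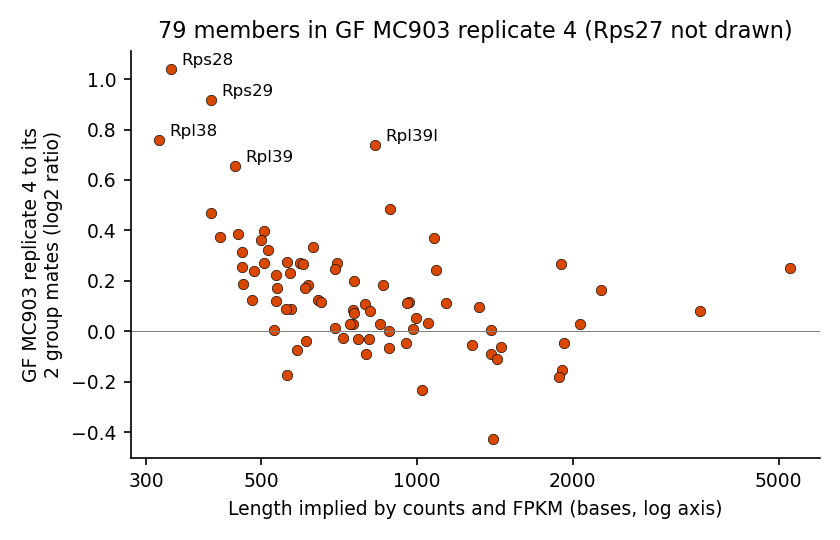
Log2 ratio of each member's level in GF MC903 replicate 4 to the mean of its 2 group mates against transcript length in bases (log axis). Rps28, Rps29 and Rpl38, the shortest members drawn with names, lie between 0.76 and 1.04, and the ratio falls with length (Spearman's rho -0.57 over the 80 members with Rps27).

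The paralogs did not all move with their counterparts. Rpl3l replaces Rpl3 in skeletal and heart muscle. It measured 8.93, 7.40 and 8.24 CPM with ethanol and 7.21, 5.27 and 5.72 with MC903 in SPF skin, and 13.8, 15.5 and 13.6 against 9.96, 7.03 and 9.31 in GF skin. The groups did not overlap, and Rpl3l fell by 0.43 ± 0.15 (log2, adjusted p = 0.0201, edgeR) in SPF skin and by 0.70 ± 0.15 (adjusted p = 0.000951) in GF skin. Without SPF ethanol replicate 1, SPF MC903 replicate 2 or SPF MC903 replicate 3 it was not called in SPF skin. As a share of Rpl3 per length, Rpl3l went from 0.734% ± 0.116 (SD) to 0.312% ± 0.061 in SPF and from 1.19% ± 0.07 to 0.503% ± 0.091 in GF skin. Of 10 skeletal muscle markers, 9 fell with MC903 in each housing; their summed level was 2041 to 2382 CPM in SPF ethanol, 1147 to 1223 in SPF MC903, 2842 to 3128 in GF ethanol and 1790 to 1823 in GF MC903 skin. The part of muscle in the value of Rpl3l was not tested.

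Rps27l, a p53-responsive paralog of Rps27, rose by 0.63 ± 0.09 in SPF and 0.78 ± 0.09 in GF skin, and its values were -0.20 and -0.25 once the length trend was removed. Per length it stood at 10.9% ± 0.81 of the summed Rps27 and Rps27rt with ethanol and 9.38% ± 0.65 with MC903 in SPF skin. Rpl39l, the testis-enriched paralog of Rpl39, measured 1.11 to 3.502 CPM over all libraries. It rose in SPF skin (0.96 ± 0.30, adjusted p = 0.0119, edgeR) and gave 0.45 ± 0.30 in GF skin (adjusted p = 0.205). With the length trend removed, Rpl39l passed in neither, at 0.37 (adjusted p = 0.249, edgeR) in SPF and -0.27 (adjusted p = 0.413, edgeR) in GF skin. Its counterpart Rpl39, at the exit of the peptide tunnel, rose by 0.82 ± 0.14 and 0.88 ± 0.14, and gave -0.09 and -0.28 with the length trend removed. Testis germ cell markers summed to 0 to 0.2 CPM, none of the 7 could be tested, and the male germline paralog Rpl10l was at 0 counts.

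The genes of cytosolic ribosomal proteins that carry other symbols rose with the members. All 6 genes listed here rose in both housings, with a median of 1.20 in SPF and 1.08 in GF skin. Fau, whose product is a fusion with the small subunit protein eS30, rose by 1.24 ± 0.11 and 1.22 ± 0.11. Rps3a1 rose by 0.92 ± 0.10 and 0.95 ± 0.10. Rack1, the scaffold on the head of the small subunit, rose by 1.13 ± 0.07 in SPF and 0.73 ± 0.07 in GF skin. The paralog Rpl22l1 rose more than any of these: its level per length was 68.8 ± 5.7 FPKM (SD) with ethanol and 231 ± 25 with MC903 in SPF skin, and 91.1 ± 12.1 against 254 ± 40 in GF skin. Rpl22l1 stood at 66.7% ± 4.5 of Rpl22 with ethanol and 169% ± 10 with MC903 in SPF skin, and at 67.9% ± 7.6 and 148% ± 15 in GF skin, so the paralog exceeded Rpl22 in every MC903 library and in no ethanol library. Rpl36al went from 45.8% ± 2.0 to 74.5% ± 2.0 of Rpl36a in SPF skin and from 48.5% ± 1.3 to 70.9% ± 5.7 in GF skin. Rpl7l1 stayed between 2.22% and 2.96% of Rpl7 in all libraries.

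The difference between the responses asked whether members responded to MC903 more or less in GF than in SPF skin. Of 80 members 4 responded less in GF skin and 0 responded more, where 9.26% of all genes responded less and 7.76% more. With DESeq2, 8 members responded less and 0 more, where 12.3% and 8.5% of all genes did, and with limma's voom 4 and 0 members. At an unadjusted p under 0.05, edgeR gave 8 less and 1 more. The 4 were the large subunit genes Rpl12, Rpl5, Rpl10 and Rpl15. Rpl12 measured 834, 862 and 804 CPM with ethanol and 1473, 1542 and 1509 with MC903 in SPF skin, and 829, 879 and 878 against 1200, 1281 and 1166 in GF skin. Ethanol levels overlapped between the housings, and every GF MC903 library lay below every SPF MC903 library. Rpl12 rose by 0.86 ± 0.06 in SPF and 0.50 ± 0.06 in GF skin, and the GF value was -0.02 with library totals and -0.39 with the length trend removed. The difference of the responses of Rpl12 was -0.36 ± 0.09 on the log2 scale (adjusted p = 0.0148, edgeR). For Rpl5 the difference was -0.35 ± 0.09 (adjusted p = 0.0178). Rpl10, a late-joining protein at the site where subunits meet, measured 527, 573 and 565 against 1403, 1535 and 1459 CPM in SPF skin and 658, 735 and 687 against 1406, 1497 and 1423 in GF skin. Its ethanol levels were higher in GF skin and its MC903 levels overlapped, for a difference of -0.34 ± 0.09 (adjusted p = 0.0262). Rpl15, which binds ribosomal RNA in the large subunit core, gave -0.34 ± 0.09 (adjusted p = 0.0287). Rpl10 lost its call without SPF ethanol replicate 1, GF ethanol replicate 4, GF MC903 replicate 1 or GF MC903 replicate 5, and Rpl15 without any of 6 libraries, among them GF MC903 replicate 4. Relative to the family, 2 members responded less (Rpl10 and Rpl12, at -0.32 ± 0.09 and -0.34 ± 0.10) and 0 more, beside 3.84% and 4.29% of all genes. Neither of these 2 was called without SPF ethanol replicate 1 or 2, SPF MC903 replicate 1 or 3, GF ethanol replicate 1 or 5, or any 1 of the GF MC903 libraries; without SPF ethanol replicate 3 or GF ethanol replicate 4, 1 was. With the length trend removed, 15 members responded less in GF skin, where 11.97% of all genes did.

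Without MC903, members stood slightly higher in GF skin under TMM scaling. In GF against SPF ethanol skin 31 of 80 members were higher and 0 lower, where 11.6% of all genes were higher and 10.3% lower, with a median of 0.26. At an unadjusted p under 0.05 edgeR gave 57 higher and 0 lower, and DESeq2 and limma's voom also called 0 lower. Leaving out single ethanol libraries gave as few as 5 members higher (without GF ethanol replicate 4), with 7 without SPF ethanol replicate 3, 8 without SPF ethanol replicate 1 and 17 without GF ethanol replicate 5. With DESeq2 the count was 48 (14.5% of all genes), and with the length trend removed it was 3 (7.25%), with a median of 0.04. Apart from Rpl3l (0.80 ± 0.15), beside which 9 of 10 muscle markers were also higher in GF skin, the highest of the 31 were Rps16 (0.51 ± 0.12, adjusted p = 0.0101, edgeR) and Rps15 (0.49 ± 0.10, adjusted p = 0.00745), both proteins of the small subunit head. Rps15 measured 482, 532 and 480 CPM in SPF and 635, 775 and 690 in GF ethanol skin, without overlap. Relative to the family, 6 members were higher and 2 lower (Rpl34 and Rplp0), where 1.83% and 24.9% of all genes were. On the TMM scale Rpl34 gave -0.17 alone and 0.20 with its copy added, and neither passed the test. The count of 6 rested on single libraries: it was 0 without GF ethanol replicate 4, 1 without SPF ethanol replicate 1 or GF ethanol replicate 5, 2 or 3 without any 1 of the other ethanol libraries or GF MC903 replicate 1 or 5.

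With MC903, 40 members were higher in GF than in SPF skin and 3 were lower, where 20.8% of all genes were higher and 20.9% lower, with a median of 0.23. Without GF MC903 replicate 4, 22 were higher and 3 lower, where 18.3% and 18.5% of all genes were. The number higher was 25 without SPF MC903 replicate 1 (18.2% of all genes) and 20 without SPF MC903 replicate 3 (16.5%). With the length trend removed the picture turned: 2 were higher and 27 lower, with a median of -0.14, where 16.6% of all genes were higher and 22.9% lower. Rps28 measured 283, 333 and 243 CPM in SPF and 385, 775 and 368 in GF MC903 skin, and Rps29 measured 608, 733 and 530 against 862, 1545 and 776. Both were high in GF MC903 replicate 4, and the log2 differences were 0.83 ± 0.24 (adjusted p = 0.0144, edgeR) and 0.77 ± 0.22 (adjusted p = 0.0137). Without that library they were 0.40 (adjusted p = 0.0402, edgeR) and 0.39 (adjusted p = 0.0431). Without SPF MC903 replicate 3 neither passed the test (adjusted p = 0.0612 and 0.0596, edgeR). The 3 lower members were Rpl34 (-0.37 ± 0.10), Rpl12 (-0.31 ± 0.06, adjusted p = 0.00156) and Rpl5 (-0.26 ± 0.06, adjusted p = 0.00505). With its copy added, Rpl34 gave 0.13 ± 0.08. Relative to the family, 16 members were higher and 12 lower, beside 9.32% and 30.4% of all genes; 6 were higher without SPF MC903 replicate 3 and 10 without GF MC903 replicate 4. The share of counts in the members was 1.14 times as high in GF as in SPF skin with ethanol and 1.17 times with MC903.

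Genes that build and use the ribosome were read from lists of the pathway, chosen with earlier results of these data known. Each count below is set against the shares of all genes given for each response. Of 51 genes of nucleolar ribosome biogenesis, 49 rose in SPF and 50 in GF skin, and the others did not pass the test, with medians of 1.21 and 1.06. Nhp2, a core protein of the particles that guide pseudouridylation, rose by 2.105 ± 0.11 and 2.05 ± 0.11, and Fbl, the methyltransferase fibrillarin, by 1.84 ± 0.09 and 1.98 ± 0.09. Bysl, needed for the small subunit precursor, rose by 2.01 ± 0.09 and 1.71 ± 0.09, and Nop16 by 1.98 ± 0.10 and 1.76 ± 0.10. The medians of this list changed little when the length trend was removed, to 1.15 and 1.01, whereas those of the members were 0.51 and 0.39. Of 14 late maturation factors 14 and 13 rose, with medians of 0.84 and 0.67. Mrto4, which holds the place of the stalk in precursor particles, rose by 1.95 ± 0.11 and 1.78 ± 0.11. All 5 dedicated chaperones of ribosomal proteins rose in both housings, among them Grwd1 (1.71 ± 0.11 and 1.56 ± 0.11), an escort of Rpl3, and Heatr3 (0.50 ± 0.07 and 0.30 ± 0.07), an escort of Rpl5, whose values with library totals were -0.08 and -0.21. On that scale 2 of the 5 rose and 1 fell in SPF skin, where 19.0% of all genes rose and 61.4% fell. In GF skin 3 rose and 1 fell, where 17.0% and 58.9% of all genes did. Of 14 RNA polymerase I genes, 9 rose and 2 fell in SPF and 10 rose and 1 fell in GF skin, led by the subunit Polr1d (1.84 ± 0.10 and 1.59 ± 0.10).

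Of 38 initiation factor genes, 34 rose and 1 fell in SPF and 35 rose and 1 fell in GF skin, with medians of 1.04 and 0.80. Eif2s2, a subunit of the factor that brings the initiator tRNA, rose by 1.88 ± 0.06 in SPF and 1.19 ± 0.06 in GF skin, and Eif4e, which binds the cap, by 1.64 ± 0.06 and 1.02 ± 0.06. Of the 38 genes, 12 responded less in GF skin. Elongation factors were mixed: 6 of 9 rose and 3 fell in SPF skin, and 5 rose and 3 fell in GF skin. Eef1g and Eef1d, subunits of the exchange factor, rose by 2.24 ± 0.09 and 1.95 ± 0.09 in SPF skin, and Eif5a2, the minor form of the hypusinated factor, fell by 1.77 ± 0.14. The mitochondrial ribosome, which is built from another set of nuclear genes, moved alongside: 76 of 78 rose in each housing, with medians of 0.99 and 0.95, and 0.54 and 0.43 with the length trend removed. Mrpl33 and Mrpl52 led with 1.64 ± 0.11 each in SPF skin.

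Regulators did not move as a block. Of 18 genes of TOR control, 8 rose and 8 fell in SPF skin, and 7 and 8 in GF skin. Eif4ebp1, a repressor of Eif4e that TOR phosphorylates, rose by 2.62 ± 0.12 and 2.11 ± 0.12, and Tsc1, a brake on TOR, fell by 1.58 ± 0.13 and 1.01 ± 0.13. Of 12 genes of the MYC network 5 rose and 6 fell in SPF skin, and 5 and 5 in GF skin, with Mxd1 higher (2.01 ± 0.09) and Mxd4 lower (-1.72 ± 0.12) in SPF skin. Of 10 genes listed for p53 itself and its targets, 6 rose and 2 fell in SPF skin, and 5 and 3 in GF skin. Among them Phlda3 gave 2.17 ± 0.09 and 1.33 ± 0.09. With library totals the balance of the lists moved downward, as did that of all genes. On this scale 19.0% of all genes rose and 61.4% fell in SPF skin, and 17.0% and 58.9% in GF skin. Initiation genes then counted 26 rising and 6 falling in SPF skin and 23 and 7 in GF skin, and elongation genes 4 and 3, and 4 and 5. RNA polymerase I genes counted 7 rising and 5 falling in each housing. TOR control genes counted 5 and 10 in SPF and 3 and 11 in GF skin, and MYC network genes 4 and 7 in each. Genes of the p53 list counted 5 and 4, and 3 and 5. Late maturation factors counted 9 and 2, and 7 and 2, nucleolar biogenesis genes 43 and 2, and 41 and 1, and mitochondrial ribosomal genes 57 and 4, and 60 and 4.

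**Figure D5:**
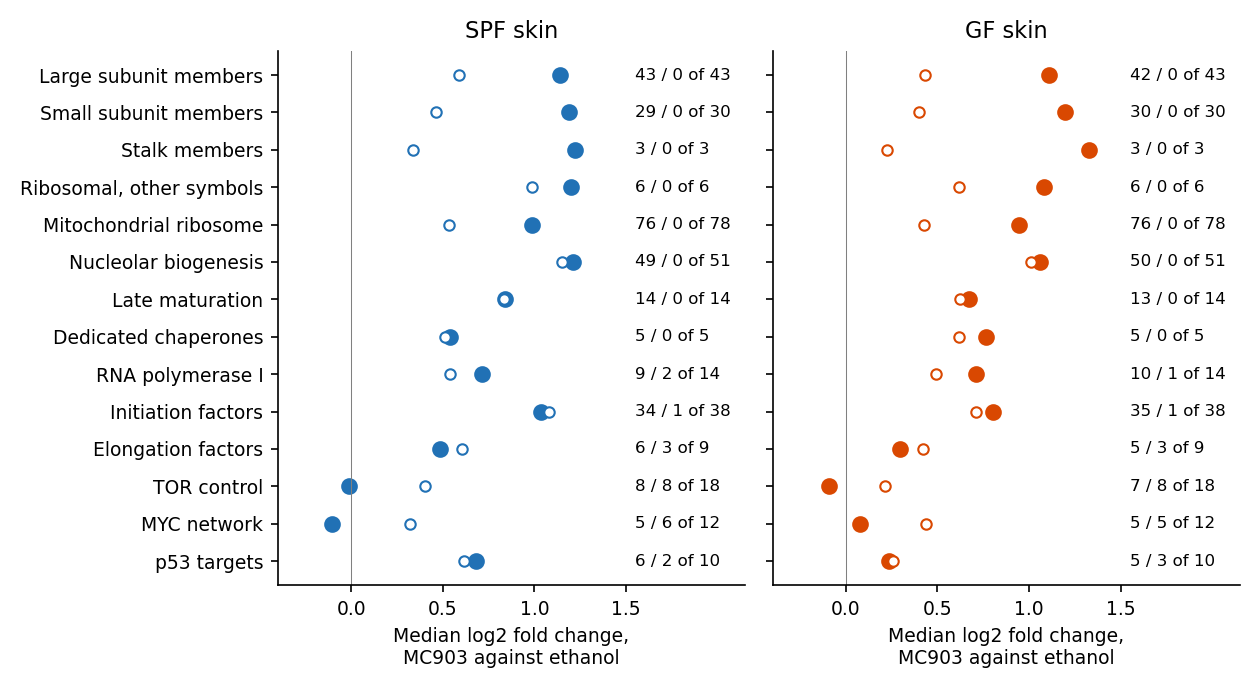
Median log2 fold change with MC903 against ethanol in SPF (left) and GF skin (right) of the members by class and of the pathway lists, under TMM scaling (filled) and with the length trend of all genes removed (open); numbers give how many genes rose and fell of those tested. Members have medians near 1.1 to 1.3 when filled and 0.2 to 0.6 when open, and nucleolar biogenesis stays at 1.0 or above.

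Markers of cell types and of division moved with the same treatment. All 10 proliferation markers rose in both housings, with medians of 2.17 and 2.02, and their summed level went from 293 to 348 CPM in SPF ethanol to 959 to 1105 in SPF MC903 skin, and from 310 to 392 to 1099 to 1145 in GF skin. Of 10 keratinocyte markers 5 rose and 4 fell in SPF skin and 5 rose and 2 fell in GF skin, with medians of 0.31 and 0.14. Over all genes 35% rose and 38.8% fell in SPF skin, and 33.4% and 35.1% in GF skin. Krt14, which rose by 2.51 ± 0.12 in SPF skin, had one of the largest changes of the keratinocyte list. With library totals 2 of the 10 keratinocyte markers rose and 6 fell in each housing. All genes with these totals gave 19.0% rising and 61.4% falling in SPF skin, and 17.0% and 58.9% in GF skin. Of 8 fibroblast markers 7 fell in each housing. Of 14 leukocyte markers tested 5 rose and 5 fell in SPF and 5 rose and 3 fell in GF skin, with medians of 0.39 and 0.26. S100a8, at 5.32 ± 0.41 and 6.08 ± 0.42, had the largest change of that list and does not stand for it. Of the smaller lists, 3 of 5 adipocyte, 4 of 5 endothelial and 3 of 4 cartilage markers fell in each housing. With the length trend removed, 0 endothelial markers fell and 1 rose in SPF skin and 2 fell in GF skin, and 1 cartilage marker fell and 2 rose in SPF skin. The part of these cell types in the members' response was not tested.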

How the data were processed

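RNA of 12 bulk ear skin libraries was sequenced, 3 in each of 4 groups, as grouped by the labels. The authors' deposited table holds estimated read counts, written as whole numbers, and FPKM per gene. Per the submitters' processing notes, bcl2fastq 2.20.0, Trimmomatic, HISAT2 2.1.0, StringTie 1.3.4d and build mm10 were used. Settings, gene models and strandedness of that processing are not stated in the labels. The estimated counts, 36358294 to 48225425 per library, were fitted as deposited with edgeR 4.0.16 (R 4.3.3) over all 12 libraries, with TMM scaling, filterByExpr (minimum count 10) and quasi-likelihood tests of 5 contrasts. Adjusted p-values are Benjamini-Hochberg values over 16466 genes, with a threshold of 0.05. The SE is the log2 fold change divided by the square root of F. CPM values carry the TMM scaling. FPKM served only for levels per length, the implied length and paralog shares. Length trends were removed with a lowess curve per library (span 0.3) over all genes. DESeq2 1.42.0 and limma 3.58.1 were alternatives, and the fits were tested on simulated data. Copies were found with BLAST 2.17.0+.

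The members and the gene lists were chosen with earlier results of these data known. Genes named were Rplp0, Rplp1, Rplp2 and Rpsa, the paralogs and their counterparts, the 3 highest and 3 lowest called members of each comparison, the 3 highest and 3 lowest by FPKM, ribosomal genes with other symbols, and up to 4 genes with the highest absolute change per list. One gene of the lists is not reported here and was left out of them. No libraries held the same counts: chi-square per degree of freedom between replicates was 17.5 to 44.7. Counts set the precision of low members such as Rpl3l, Rpl39l and Rpl32l.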

Additional observations from a re-analysis of the deposited data

Results flagged for a closer look

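The response to MC903 differed between the housings, by the test of the difference itself (edgeR, adjusted over all genes, GF minus SPF, log2), for 4 members: Rpl12 (-0.36, adjusted p = 0.0148), Rpl5 (-0.35, adjusted p = 0.0178), Rpl10 (-0.34, adjusted p = 0.0262) and Rpl15 (-0.34, adjusted p = 0.0287). These are 4 of 80 members tested, where 9.26% of all genes responded less in GF skin and 7.76% more. Rpl10 and Rpl15 lost the call when some single libraries were left out, as given above. Relative to the family the difference was -0.34 for Rpl12 (adjusted p = 0.0481, edgeR) and -0.32 for Rpl10 (adjusted p = 0.0489, edgeR). On that scale 3.84% of all genes responded less and 4.29% more, and most fits without 1 library called neither Rpl12 nor Rpl10.

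Among the named genes of the other lists, the response was smaller in GF skin for the initiation genes Eif2s2 (-0.69) and Eif4e (-0.61), the TOR control genes Sesn2 (-1.21) and Eif4ebp1 (-0.51), the p53 target Phlda3 (-0.84), the elongation gene Eef1g (-0.44), the ribosome-bound Rack1 (-0.40) and the mitochondrial ribosomal gene Mrpl17 (-0.39). The difference was positive for 3 genes whose fitted SPF response was below 0 and lower than in GF skin: Mycl (1.87), Pdcd4 (1.08) and Eif5a2 (0.64). Adjusted p-values (edgeR) of the genes in this paragraph ran from 0.000166 for Mycl to 0.0486 for Eif4ebp1. All but Rack1 were named for a large response in either housing, a choice that favors genes whose responses differ.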

How the results depend on the processing

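The counts of members that rose with MC903 stayed within 1.5 times of the counts reported under each alternative run. With library totals, values below 0 were found for Rplp0 (-0.11 in SPF and -0.0072 in GF skin), Rpl5 (-0.092 and -0.37), Rpl12 (-0.015 in GF), Aamp (-0.037 in SPF) and Heatr3 (-0.078 and -0.21); 2 members fell in GF skin, and 5 were lower in GF than SPF MC903 skin. With the length trend removed, values were below 0 for Rps27l (-0.20 in SPF and -0.25 in GF), Rpl39 (-0.092 and -0.28), Rpl39l (-0.27 in GF) and Rpl12 (-0.39 in GF). The same setting gave 2 members falling in SPF and 5 in GF skin, 15 responding less in GF skin, 3 higher and 2 lower in GF ethanol skin, and 2 higher and 27 lower in GF MC903 skin. DESeq2 gave 8 members responding less in GF skin, 48 higher in GF ethanol skin and 5 lower in GF MC903 skin. Copies added together, chosen after seeing the data, gave 0.13 for Rpl34 in GF against SPF MC903 skin, and 0.14 with GF MC903 replicate 4 also left out, where 23 members were higher. The members' share without the 100 highest other genes was 6.75%, 10.4%, 7.73% and 12.3% in SPF ethanol, SPF MC903, GF ethanol and GF MC903 skin, and 15.4%, 18.2%, 16.6% and 20.8% of summed FPKM.

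Relative to the family, 0 members responded less in GF skin with the median of ratios as scale and 1 with no filter on low counts. Without single replicates, members falling in SPF skin numbered 0 to 1, those responding more in GF skin 0 to 1 and less 2 to 4, those higher in GF ethanol skin 5 to 42 and in GF MC903 skin 20 to 52. Relative to the family the ranges were 0 to 1 responding more, 0 to 2 less, 0 to 8 higher and 1 to 3 lower in GF ethanol skin, and 6 to 17 higher in GF MC903 skin; Rps27 in GF skin ranged from -0.029, without GF MC903 replicate 4, to 5.00 (without GF MC903 replicate 1). Same-numbered libraries of the treatments had correlated deviations of 0.007 to 0.14 in SPF and -0.022 to 0.022 in GF skin, and not every library correlated best with its own number. With the replicate number as a block, 78 members rose and 1 fell in SPF, 76 rose and 1 fell in GF skin, 3 responded less in GF skin, and relative to the family 1 responded more. No paired analysis was possible for GF against SPF skin because the housings share only the replicate number 1. The causes of these changes were not tested.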
